A study of Mus musculus with 4 samples.

Results

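The genes described here encode the lymphotoxin beta receptor, the TNF receptor TNFR1 and the proteins that carry their signal to NF-kB. They are 10 of the 33696 genes counted, and they were chosen by name: *Ltbr*, *Tnfrsf1a*, *Traf3*, *Birc3*, *Map3k14*, *Nfkb2*, *Relb*, *Nfkb1*, *Rela* and *Nfkbia*. Each was read in the fibroblasts of 4 libraries from B16-F1-OVA melanomas. A fibroblast was a cell barcode with 500 to 6000 genes, at most 10% mitochondrial counts, no *Ptprc* or *Pax3* count, and at least 3 counts over *Col1a1*, *Col1a2* and *Col3a1*. This kept 21098 of 24489 barcodes.

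All 4 libraries came from mice of 1 kind, in which the *Cxcl13* promoter drives tdTomato together with cre and a floxed R26R-eGFP allele reports cre activity. tdTomato thus marks cells in which the *Cxcl13* promoter is active, and eGFP marks cells in which cre is or once was active. The mice (host strain C57Bl/6) received 400000 melanoma cells in the peritoneum, without further treatment, and tumors were taken on day 14. The study lists the R26R-eGFP parent line as a mixed stock of this strain and another. Cells without CD45 and CD31 and with high podoplanin were sorted by both reporters, and each of the 4 populations was made into 1 library of 10x Genomics 3′ transcripts counted by unique molecular identifiers (UMIs). The kept fibroblasts numbered 9866 in tdTomato-neg eGFP-neg fibroblasts, 5745 in the tdTomato-neg eGFP+ library, 853 in the tdTomato+ eGFP+ library and 4634 in the tdTomato+ eGFP-neg library. How many mice or tumors went into a library is not given in the sources used here, and mice of both sexes were used in the study.

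Lymphotoxin beta receptor and TNFR1 belong to the TNF receptor superfamily, and on the stroma of lymph nodes and ectopic lymphoid tissue the former is known for inducing *Cxcl13* and other homeostatic chemokines. In the non-canonical pathway, TRAF3 holds the cIAP ubiquitin ligases, of which *Birc3* encodes cIAP2, next to the kinase NIK (*Map3k14*), so that NIK is degraded. Receptor engagement removes TRAF3, NIK accumulates, and the p100 precursor made from *Nfkb2* is cut to p52, which enters the nucleus with RelB. In the canonical pathway, NF-kB dimers of p50 (*Nfkb1*) and RelA (*Rela*) are held in the cytoplasm by IkB alpha (*Nfkbia*) until it is degraded. *Nfkbia*, *Nfkb1*, *Nfkb2*, *Relb* and *Birc3* are themselves known as NF-kB target genes, whereas most control over the pathway acts on proteins, which UMI counts do not measure.

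The promoters of 8 of the 10 genes were at hand from RefSeq on GRCm38.p6, as windows of 250 bases before to 50 after a start. They were searched on both strands for the kB consensus, the 10-base DNA element to which NF-kB dimers bind. It was found in the windows of *Nfkbia*, *Traf3* and *Nfkb2*, and not in those of *Ltbr*, *Tnfrsf1a*, *Birc3*, *Map3k14* and *Rela*. The 8 genes had 10 windows, of which 5 held it, where 4.505% of all 32851 promoter windows did. Most of these 5 windows belong to *Nfkb2*, whose windows partly overlap and share a match. By gene 3 of the 8 held it, and the share of all genes was not counted. The stretches up to the start that hold the matches are shown because *Nfkbia* differed between cells with and without *Cxcl13* UMIs whereas *Nfkb2* and *Traf3* did not pass that test, with the matches in capitals. They lie at chr12:55492648-55492716 on the minus strand for *Nfkbia*, at chr12:111166320-111166369 on the plus strand for *Traf3*, and at chr19:46304658-46304736 on the plus strand for the most upstream of the *Nfkb2* starts.
Nfkbia: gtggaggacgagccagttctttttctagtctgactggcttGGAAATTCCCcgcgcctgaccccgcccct
Traf3: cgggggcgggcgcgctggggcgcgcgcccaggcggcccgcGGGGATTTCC
Nfkb2: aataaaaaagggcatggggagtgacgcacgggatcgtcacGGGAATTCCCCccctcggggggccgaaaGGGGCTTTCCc
The first run of capitals of *Nfkb2* holds 2 overlapping matches. A match describes the letters of a window and not a bound site.

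The deposited libraries held 10071954 to 90259852 UMIs, and the median kept fibroblast held 5776 UMIs in the tdTomato-neg eGFP-neg library and 8397 to 9117.5 in the others. All 8 genes of a fibroblast list were detected in each library, at a sum of 20327 to 30617 CPM (counts per 1000000 UMIs), of which the collagens had been used to choose the cells. Of 8 immune genes 6 to 7 were detected, at a sum of 15.5 to 58.7 CPM, with *Ptprc* at 0 by the choice of cells. The 6 melanoma genes, of which *Pax3* is at 0 by the same choice, summed to 284 CPM in the tdTomato-neg eGFP-neg library and to between 5.91 and 29.2 CPM in the other 3. Mesothelial genes, a list of 7 led by *Msln*, summed to 815 CPM in the tdTomato-neg eGFP+ library and to 176 CPM in the tdTomato+ eGFP-neg library. Between 2 and 21 barcodes were shared by any pair of libraries.

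The 10 genes were detected in every population, and the highest of the 4 libraries stood above the lowest by 0.26 (*Ltbr*) to 0.63 (*Nfkb1*) on the log2 scale. Each level is given in CPM of summed UMIs with its exact 95% Poisson interval. With 1 library for each population there is no replicate error, and the intervals cover counting error only. UMIs of 3′ ends are not scaled by gene length, and different genes are therefore not ranked against each other.

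*Ltbr* (ENSMUSG00000030339), the receptor for membrane lymphotoxin and LIGHT, stood at 29.2 CPM (28.0 to 30.5) in tdTomato-neg eGFP-neg fibroblasts, 29.9 (26.4 to 33.8) in tdTomato+ eGFP+ fibroblasts, 31.8 (30.36 to 33.34) in tdTomato-neg eGFP+ fibroblasts and 35.0 (33.35 to 36.79) in tdTomato+ eGFP-neg fibroblasts. The intervals of neighbours in this order overlapped except for the last 2. *Tnfrsf1a* (ENSMUSG00000030341), the receptor for TNF and soluble lymphotoxin, stood at 96.9 CPM (90.4 to 103.7) in tdTomato+ eGFP+ fibroblasts, 107 (105 to 110) in tdTomato-neg eGFP+ fibroblasts, 110 (108 to 113) in tdTomato-neg eGFP-neg fibroblasts and 120 (117 to 123) in tdTomato+ eGFP-neg fibroblasts. The lowest and the highest were apart from their neighbours, and the tdTomato-neg libraries overlapped.

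Among the regulators of NIK, *Traf3* (ENSMUSG00000021277), the adaptor that recruits the ubiquitin ligases, stood at 40.0 CPM (38.6 to 41.5) in tdTomato-neg eGFP-neg fibroblasts, 50.6 (46.0 to 55.6) in tdTomato+ eGFP+ fibroblasts, 51.7 (49.9 to 53.6) in tdTomato-neg eGFP+ fibroblasts and 58.0 (55.8 to 60.2) in tdTomato+ eGFP-neg fibroblasts. *Birc3* (ENSMUSG00000032000) stood at 32.6 CPM (31.36 to 33.94) in tdTomato-neg eGFP-neg fibroblasts, 36.8 (35.2 to 38.4) in tdTomato-neg eGFP+ fibroblasts, 37.8 (33.79 to 42.11) in tdTomato+ eGFP+ fibroblasts and 47.8 (45.9 to 49.9) in tdTomato+ eGFP-neg fibroblasts. For both genes the highest library was apart from the others and the middle pair overlapped. The lowest was apart from the others for *Traf3*, whereas for *Birc3* it met the wide interval of the tdTomato+ eGFP+ library. *Map3k14* (ENSMUSG00000020941), which encodes NIK itself, was at the lowest counts of the 10, with 6.73 CPM (6.16 to 7.34) in tdTomato-neg eGFP-neg fibroblasts, 7.18 (5.51 to 9.21) in tdTomato+ eGFP+ fibroblasts, 7.89 (7.17 to 8.67) in tdTomato-neg eGFP+ fibroblasts and 8.81 (7.97 to 9.71) in tdTomato+ eGFP-neg fibroblasts. Each *Map3k14* level overlapped its neighbours.

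Of the non-canonical subunits, *Nfkb2* (ENSMUSG00000025225) stood at 23.5 CPM (22.45 to 24.65) in tdTomato-neg eGFP-neg fibroblasts, 28.2 (24.73 to 31.93) in tdTomato+ eGFP+ fibroblasts, 33.3 (31.7 to 35.0) in tdTomato+ eGFP-neg fibroblasts and 35.1 (33.6 to 36.7) in tdTomato-neg eGFP+ fibroblasts. *Relb* (ENSMUSG00000002983) stood at 35.8 CPM (34.4 to 37.2) in tdTomato-neg eGFP-neg fibroblasts and at 42.9 (41.0 to 44.8), 44.3 (42.6 to 46.1) and 44.6 (40.3 to 49.3) in the tdTomato+ eGFP-neg, tdTomato-neg eGFP+ and tdTomato+ eGFP+ libraries. For both, the tdTomato-neg eGFP-neg library lay below the other 3, which overlapped their neighbours.

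Of the canonical subunits, *Nfkb1* (ENSMUSG00000028163) had the widest spread, with 226 CPM (222 to 229) in tdTomato-neg eGFP-neg fibroblasts, 274 (263 to 285) in tdTomato+ eGFP+ fibroblasts, 334 (329 to 339) in tdTomato-neg eGFP+ fibroblasts and 350 (344 to 355) in tdTomato+ eGFP-neg fibroblasts. No interval of *Nfkb1* met another. *Rela* (ENSMUSG00000024927) stood at 27.6 CPM (26.4 to 28.8), 31.5 (27.9 to 35.5), 36.7 (35.1 to 38.3) and 38.6 (36.9 to 40.5) in the same order of libraries, with overlap between all neighbours. *Nfkbia* (ENSMUSG00000021025), which encodes the inhibitor that resequesters NF-kB after its release, stood at 962 CPM (955 to 969) in tdTomato-neg eGFP-neg fibroblasts, 1108 (1086 to 1130) in tdTomato+ eGFP+ fibroblasts, 1138 (1129 to 1148) in tdTomato+ eGFP-neg fibroblasts and 1179 (1170 to 1188) in tdTomato-neg eGFP+ fibroblasts. The tdTomato-neg eGFP-neg library was thus the lowest for 9 of the 10 genes, *Tnfrsf1a* being the exception. Genes at large leaned the same way. Over 9797 genes the median log2 ratio to this library was 0.10 in the tdTomato+ eGFP-neg library and 0.11 in the tdTomato-neg eGFP+ library. The share of all genes that were lowest in it was not counted.

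**Figure D1:**
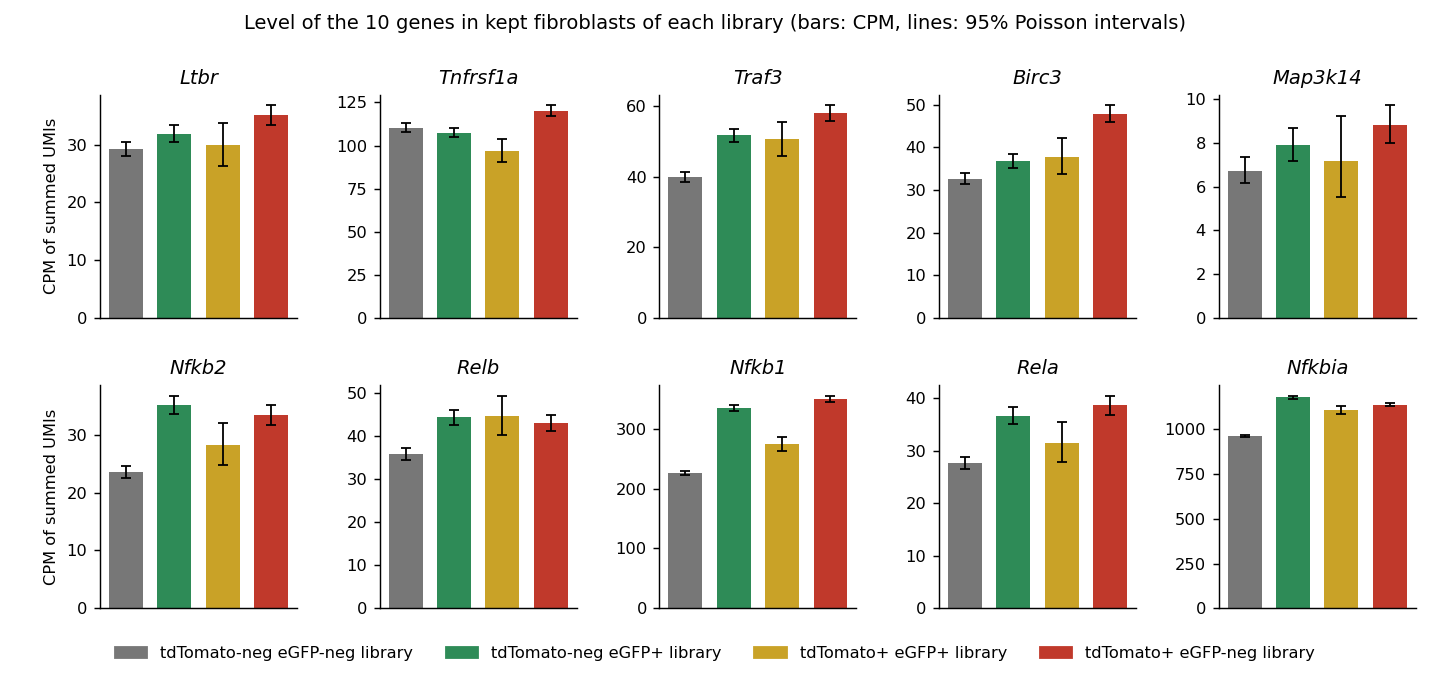
Level of each gene in CPM of UMIs summed over kept fibroblasts (vertical axis from 0, a scale for each panel), 1 bar for each library with the exact 95% Poisson interval as a line. The grey bar of the tdTomato-neg eGFP-neg library is the lowest in 9 of 10 panels, from 6.73 CPM for *Map3k14* to 962 CPM for *Nfkbia*. The share of all genes that were lowest in this library was not counted.

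Shares of cells with at least 1 UMI moved with depth, which was lowest in the tdTomato-neg eGFP-neg library. As sequenced, *Ltbr* was found in 19.0% to 28.3% of the fibroblasts of a library, *Nfkb1* in 46.5% to 70.5% and *Nfkbia* in 82.6% to 94.5%. After each cell was thinned to 2000 UMIs, with 2295 shallower cells left out, these shares were 6.29% to 7.31%, 25.2% to 38.1% and 69.5% to 79.6%. Thinning thus brought *Ltbr* to nearly the same share in every library, and left the range of *Nfkb1* and *Nfkbia* with the tdTomato-neg eGFP-neg library lowest. The other 7 genes had thinned shares from 1.37% (*Map3k14*) to 22.8% (*Tnfrsf1a*).

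The genes were also present in the cells left out of the fibroblasts, and NF-kB genes are expressed by most cell types, so no cell type at hand should lack them. The cells with *Ptprc* UMIs also held fibroblast transcripts, with *Cxcl13* UMIs in 14.3% to 55.2% of them in a library, and doublets or free RNA in them were not tested. In these 423 cells, at a median of 8707 UMIs, *Nfkb1* stood at 288 CPM (272 to 305), within the range of the fibroblast libraries, and *Nfkbia* at 1273 CPM (1240 to 1307), above it. In 472 cells with *Pax3* UMIs, the marker of the melanoma, at a median of 20006 UMIs, the NF-kB genes were low, with *Nfkb1* at 61.5 CPM (56.6 to 66.7), *Nfkbia* at 176 CPM (168 to 185), *Birc3* at 4.86 CPM (3.56 to 6.48) and *Nfkb2* at 8.45 CPM (6.70 to 10.5). *Ltbr* was different in this respect, at 28.2 CPM (24.9 to 31.8) in the cells with *Pax3*, which overlaps its level in 3 of the 4 fibroblast libraries. Cells with UMIs of both *Ptprc* and *Pax3* were in neither group.

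Few UMIs of the ligands were found in the fibroblasts. *Lta*, which encodes soluble lymphotoxin, had 5 UMIs over all 21098 cells, *Ltb*, which encodes its membrane partner, had 21, and *Tnfsf14*, which encodes LIGHT, had 17. In the tdTomato+ eGFP+ library *Lta* and *Ltb* were found in 0 of 853 cells, which allows a share of cells with a UMI of up to 0.352% at this depth and sets no limit on cells that express the genes. *Tnf* had 439 UMIs and was found in 1.01% to 1.93% of the fibroblasts of a library. Against this, *Tnf* was found in 34.3% of the cells with *Ptprc* UMIs and in 0.424% of the cells with *Pax3* UMIs, and *Ltb* in 4.49% and in 0 of 472.

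The populations were then compared at a log2 ratio of 0.25 for the 9797 genes with a mean of at least 5 CPM, among which were all 10. This is only the fold part of the rule that the study applied to marker genes of its cell groups. That rule also asked for a low adjusted p and a minimum share of expressing cells. The comparisons here are of 1 library with 1 other, without a test. With eGFP absent, 8 of the 10 genes were higher by over 0.25 in the tdTomato+ library, and none was lower. Of all genes 33.0% were higher by that rule, and the median log2 ratio was 0.44 for the 10 genes and 0.10 for all genes. *Nfkb1* had the largest ratio at 0.63 (95% counting interval 0.60 to 0.66), followed by *Birc3* at 0.55 (0.47 to 0.64), *Traf3* at 0.54 (0.46 to 0.61), *Nfkb2* at 0.50 (0.40 to 0.60) and *Rela* at 0.48 (0.39 to 0.58). *Nfkbia* at 0.24 and *Tnfrsf1a* at 0.12 were under the threshold.

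With eGFP present, the same contrast gave another picture. None of the 10 was higher by over 0.25 in the tdTomato+ library and 2 were lower, *Nfkb2* at -0.32 (-0.52 to -0.13) and *Nfkb1* at -0.29 (-0.35 to -0.22), where 27.1% of all genes were lower by that rule. The median was -0.11 for the 10 genes and -0.10 for all genes. At both eGFP states together, 5.76% of all genes and none of the 10 were higher in the tdTomato+ library. The 2 contrasts share no library. In cells with neither *Pi16* nor mesothelial UMIs, a restriction chosen after seeing the data, the 8 genes had ratios of 0.24 to 0.78 without eGFP, with *Relb* at 0.24 below the threshold of 0.25 and *Nfkbia* now above it at 0.38, so that 8 of the 10 passed where 36.7% of all genes did. In cells with at least 3 mesothelial UMIs, chosen likewise, 6 of the 10 passed where 38.0% of all genes did, and *Ltbr* at 0.07 (-0.15 to 0.27) and *Map3k14* at 0.07 (-0.34 to 0.47) were near 0. In cells with *Xist* and no Y-linked UMI 7 of the 10 passed where 26.5% of all genes did, and *Birc3* was at 0.07 (-0.05 to 0.20), against 0.75 in cells with Y-linked and no *Xist* UMIs.

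For the eGFP reporter at a fixed tdTomato state, 6 of the 10 were higher by over 0.25 in the tdTomato-neg eGFP+ library than in the tdTomato-neg eGFP-neg library, where 28.1% of all genes were. *Nfkb2* at 0.58 (0.48 to 0.67) and *Nfkb1* at 0.57 (0.54 to 0.60) had the largest of these ratios. In cells with only *Xist* the ratio of *Nfkb1* was 0.17 (0.12 to 0.23) and in cells with only Y-linked UMIs 0.64 (0.59 to 0.68). *Xist* cells were 43.7% of the cells with 1 of the 2 marks in the tdTomato-neg eGFP+ library and 56.2% in the tdTomato-neg eGFP-neg library. Among the tdTomato+ libraries 5 of the 10 were lower by over 0.25 with eGFP, where 24.1% of all genes were, with *Nfkb1* at -0.35 (-0.41 to -0.29) and *Birc3* at -0.34 (-0.51 to -0.17) the largest. These contrasts reuse the libraries of the tdTomato contrasts. The tdTomato-neg eGFP-neg library, which enters 2 of the 4 contrasts, also had the highest sum of the melanoma list and the lowest depth. Cells with a *Pi16* UMI were 26.3% of it, against 2.81% to 6.75% in the other libraries. Cells with at least 3 mesothelial UMIs were 32.2% of it, against 50.7% in the tdTomato-neg eGFP+ library and 15.5% and 19.9% in the tdTomato+ libraries. The part of these differences in the ratios was not tested.

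**Figure D2:**
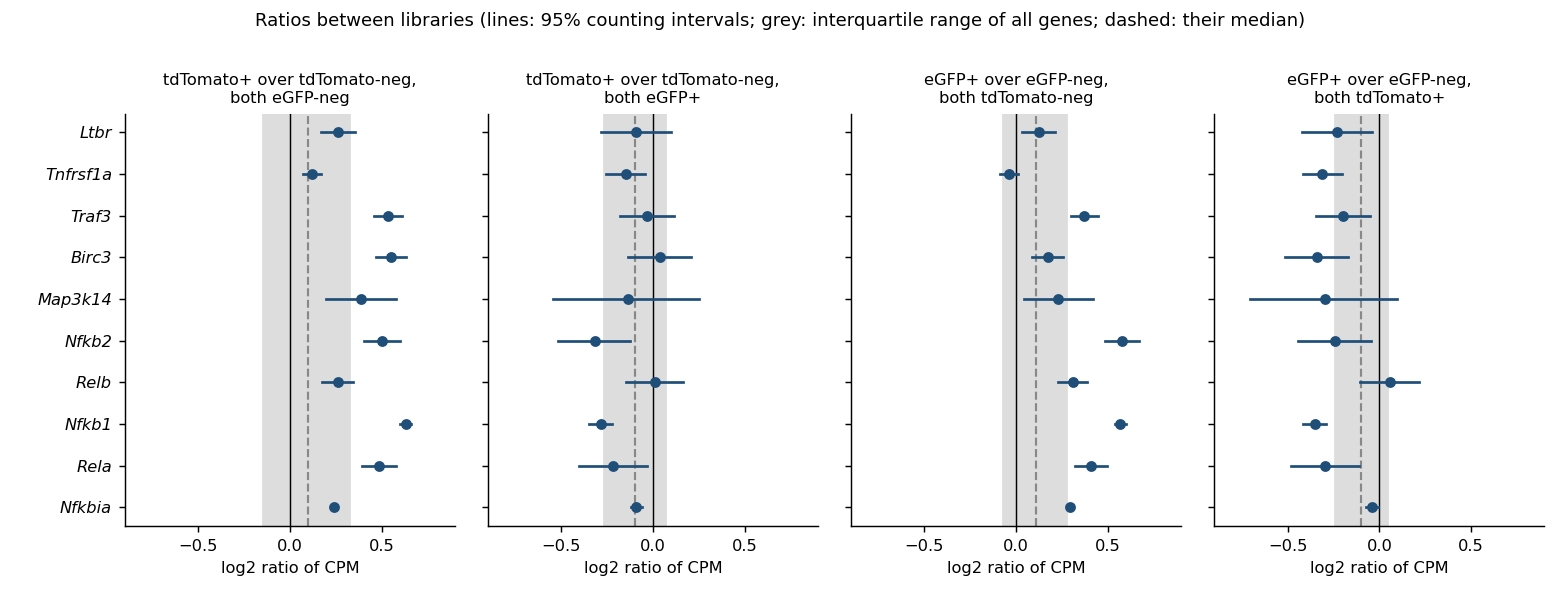
Log2 ratio of CPM between 2 libraries (horizontal axis) for each gene, 1 panel for each contrast of a reporter at a fixed state of the other. Points are ratios, lines 95% counting intervals, the grey band the interquartile range of 9797 genes and the dashed line their median. In the first panel *Nfkb1* lies at 0.63, and in the second at -0.29.

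Within each library, fibroblasts with at least 1 *Cxcl13* UMI were compared with those that had none, which asks whether the pathway genes differ along with the chemokine itself inside a sorted population. The sums were tested by edgeR with the library as a block over all 13625 genes that passed its filter on low counts, and all 10 passed. *Nfkb1* and *Nfkbia* were higher in the cells with *Cxcl13* UMIs, 2 of 10 where 4.01% of all genes were higher and 7.54% were called in either direction. No gene of the 10 was lower. The median log2 difference was 0.10 for the 10 genes and 0.00 for all genes, and 9 of the 10 estimates were above 0.

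The cells with *Cxcl13* UMIs numbered 1419 of 9866 in the tdTomato-neg eGFP-neg library, 1072 of 5745 in the tdTomato-neg eGFP+ library, 379 of 853 in the tdTomato+ eGFP+ library and 3210 of 4634 in the tdTomato+ eGFP-neg library. They were deeper, at medians of 7791 to 9982 UMIs against 5498 to 8155, and their *Xist* level was higher in 4 of 4 libraries, by log2 ratios of 0.02 to 0.44. *Cxcl13* UMIs were also found in 5.26% to 46.4% of the cells with *Pax3* UMIs of a library, at medians of 18667 to 21070 UMIs, and the part of free RNA in the classes was not tested. The mesothelial list summed to 148 to 439 CPM in cells with *Cxcl13* and 249 to 912 CPM in cells without it, with 6 to 7 of 7 genes detected, and the 10 stress genes to 4965 to 5266 CPM and 4589 to 5056 CPM. The p-values and standard errors (SE) come from the edgeR fit, in which the spread over the 4 libraries is moderated by that of all genes. An SE is therefore not the plain error over 4 differences, and n gives the number of libraries. These libraries are different sorted populations, nothing says that they come from separate animals, and the p-values may measure technical spread.

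*Nfkbia* stood at 1114 CPM in cells with and 930 CPM in cells without *Cxcl13* UMIs in tdTomato-neg eGFP-neg fibroblasts, at 1210 and 1172 CPM in the tdTomato-neg eGFP+ library, at 1169 and 1051 CPM in the tdTomato+ eGFP+ library, and at 1176 and 1037 CPM in the tdTomato+ eGFP-neg library. It was higher with *Cxcl13* in 4 of 4 libraries, by 0.20 ± 0.04 on the log2 scale (SE, n = 4 libraries; edgeR quasi-likelihood test, Benjamini-Hochberg adjusted p = 0.00316). *Nfkb1* stood at 249 and 221 CPM, 353 and 329 CPM, 298 and 252 CPM, and 359 and 324 CPM in the same order. It too was higher in 4 of 4 libraries, by 0.20 ± 0.04 (SE, n = 4; edgeR adjusted p = 0.00389). For both genes the levels of the 2 classes overlapped across libraries and were apart in the same direction within each. The scaling factors of edgeR enter the fitted values, which can therefore lie to 1 side of the per-library ratios.

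Both calls held when any 1 library was left out, with edgeR adjusted p of 0.00375 to 0.0421 for *Nfkb1* and 0.000734 to 0.0382 for *Nfkbia*. They did not hold among cells with *Xist* and no Y-linked UMI (*Nfkb1* 0.09, adjusted p = 0.537, and *Nfkbia* 0.21, adjusted p = 0.0726), and in cells without a cell cycle UMI as in thinned cells *Nfkb1* did not pass (0.11, adjusted p = 0.415, and 0.21, adjusted p = 0.0828). In cells with only Y-linked UMIs 2 of the 10 genes and 800 of 11155 genes were called. With the classes matched on UMIs these were 3 of the 10 and 877 of 13426. *Nfkb1* passed in 14 of 18 alternatives in all, and *Nfkbia* in 16. With at least 3 *Cxcl13* UMIs against none, both differences were 0.27 (edgeR adjusted p = 0.00248 for *Nfkb1* and 0.000888 for *Nfkbia*).

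*Birc3* stood at 38.1 and 31.5 CPM with and without *Cxcl13* UMIs in tdTomato-neg eGFP-neg fibroblasts, 41.6 and 35.5 CPM in the tdTomato-neg eGFP+ library, 40.0 and 35.7 CPM in the tdTomato+ eGFP+ library, and 48.0 and 47.5 CPM in the tdTomato+ eGFP-neg library. Its estimate of 0.21 ± 0.06 (SE, n = 4; positive in 4 of 4 libraries) just missed the threshold, at an edgeR adjusted p of 0.0516. It passed without the tdTomato+ eGFP-neg library (0.28, adjusted p = 0.0156), and in 5 of 18 alternatives in all.

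The receptors did not pass. *Ltbr* stood at 29.5 and 29.2 CPM with and without *Cxcl13* UMIs in tdTomato-neg eGFP-neg fibroblasts, 33.5 and 31.4 CPM in the tdTomato-neg eGFP+ library, 30.3 and 29.5 CPM in the tdTomato+ eGFP+ library, and 33.4 and 39.3 CPM in the tdTomato+ eGFP-neg library. Its fitted difference was 0.00 with a 95% interval of -0.14 to 0.15 (edgeR adjusted p = 0.995), so the interval leaves room for small changes in either direction. *Tnfrsf1a* was at 0.10 (0.01 to 0.20), positive in 3 of 4 libraries, with an edgeR adjusted p of 0.211. The ligand *Tnf* was at -0.13 (-0.54 to 0.27), and *Lta*, *Ltb* and *Tnfsf14* were too few to be tested.

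The other 5 genes did not pass, at edgeR adjusted p of 0.433 to 0.86. *Map3k14* was at 0.17 with a wide interval of -0.06 to 0.40, *Rela* at 0.10 (-0.03 to 0.23), *Traf3* at 0.03 (-0.08 to 0.13) and *Relb* at -0.03 (-0.13 to 0.08). The non-canonical subunit *Nfkb2* was at 0.04 (-0.11 to 0.18) over all libraries, with per-library ratios of 0.17 and 0.21 in the tdTomato+ libraries and of -0.12 and -0.15 in the tdTomato-neg libraries. In cells with no mesothelial UMI *Nfkb2* was higher with *Cxcl13*, by 0.38 (edgeR adjusted p = 0.00748), while in cells with at least 3 mesothelial UMIs its estimate was -0.22 (adjusted p = 0.226).

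**Figure D3:**
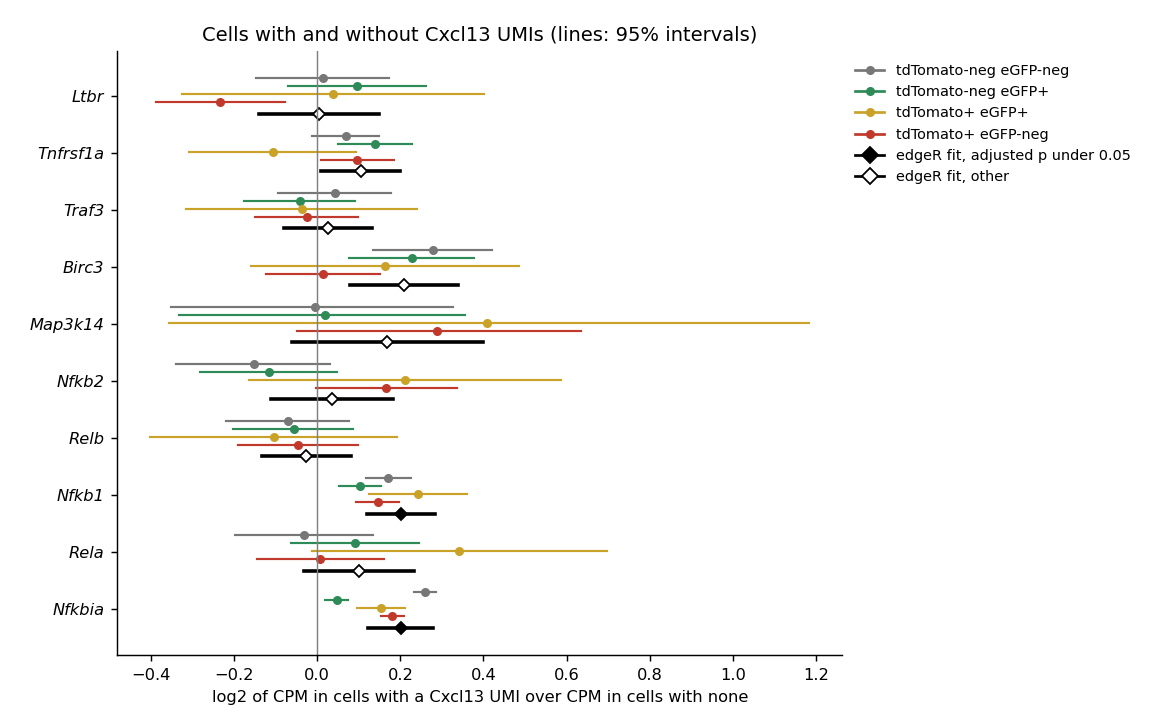
Log2 ratio of CPM in cells with at least 1 *Cxcl13* UMI over cells with none (horizontal axis). Coloured points are the 4 libraries with 95% counting intervals, black diamonds the edgeR fit over the libraries with its 95% interval, filled where the adjusted p is under 0.05. The diamonds of *Nfkb1* and *Nfkbia* are filled, both at 0.20, and that of *Ltbr* lies at 0.00.

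Whether the difference depends on the tdTomato state was tested by an interaction term, added after seeing the data. It called 0.294% of all genes and none of the 10 by the edgeR test, and 1 of the 10 had an unadjusted p under 0.05. This was *Nfkb2*, whose difference was larger in the tdTomato+ libraries by 0.29 ± 0.12 (SE; adjusted p = 0.616).

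Around the members, 83 further genes of the pathway were grouped by role, of which 73 passed the filter on low counts. Of these, 20 were higher in cells with *Cxcl13* UMIs and 1 was lower, by the edgeR test, where 4.01% of all genes were higher. The largest number of calls fell in the list of inflammatory targets, genes that NF-kB is known to induce. All lists were drawn up with earlier results of these data known. The study had also reported several chemokines of this list as enriched in its cell group enriched for *Cxcl13*. The counts therefore describe the lists, and NF-kB activity was not tested. Of 20 inflammatory targets tested 11 were higher, with a list median of 0.36 against 0.00 for all genes. *Saa3*, an acute phase protein, was higher by 1.00 ± 0.08, *Ccl5*, a chemokine for T cells and monocytes, by 0.57 ± 0.08, *Steap4*, a metalloreductase, by 0.53 ± 0.05, and *Cfb*, complement factor B, by 0.50 ± 0.03 (SE, n = 4; each in 4 of 4 libraries). Of 4 lymphoid targets tested, the adhesion molecules *Vcam1*, at 0.21 ± 0.04, and *Icam1*, at 0.18 ± 0.05, were higher.

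Of 11 further receptors 3 were higher and 1 was lower. *Tlr2*, a receptor for bacterial lipoproteins, was higher by 0.58 ± 0.09, *Il1r1*, the signalling receptor for IL-1, by 0.43 ± 0.06 and *Fas*, a death receptor, by 0.28 ± 0.04. *Tnfrsf11b*, which encodes the RANKL decoy osteoprotegerin, was at -0.39 ± 0.05, lower in 4 of 4 libraries. Of 18 adaptors 3 were higher, and all are known to restrain or relay NF-kB signals by way of ubiquitin: *Tnip1* by 0.30 ± 0.05, *Tnfaip3*, which encodes A20, by 0.26 ± 0.04, and *Birc2*, which encodes cIAP1, by 0.23 ± 0.05. Among the IkB and Rel genes *Bcl3*, a nuclear IkB, was higher by 0.18 ± 0.05, 1 of 6. No call was made among 8 kinases, which include the IKK subunits, or among 6 ligands.

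**Figure D4:**
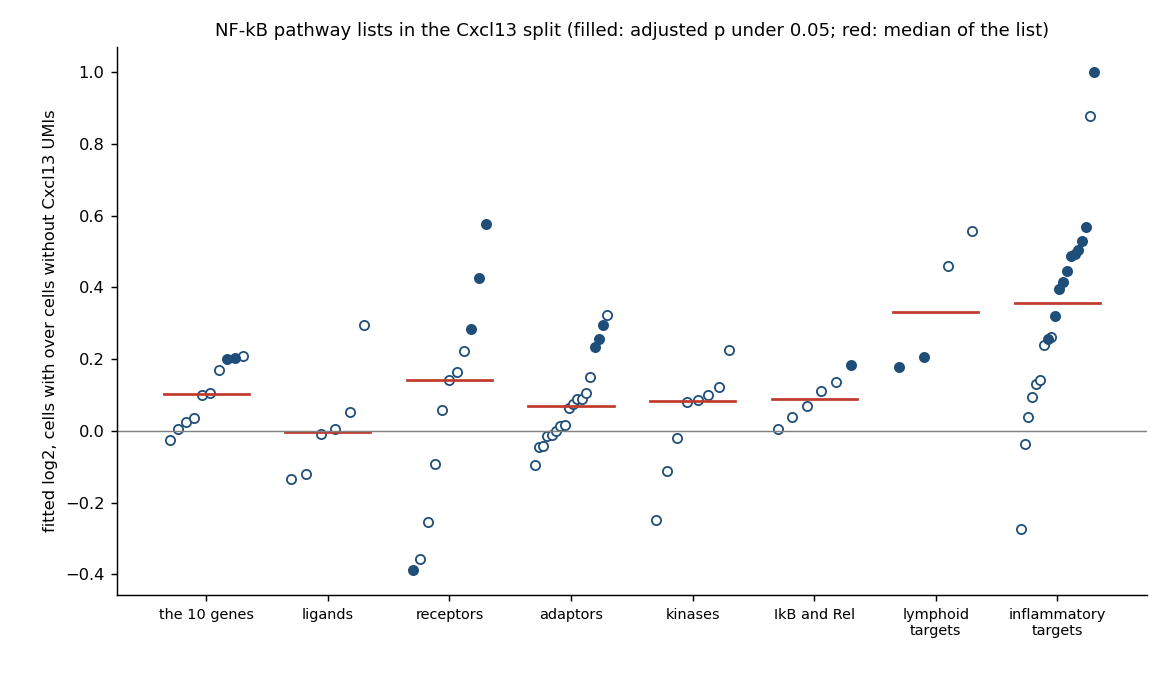
Fitted log2 difference between cells with and without *Cxcl13* UMIs (vertical axis) for the 10 genes and 7 lists of pathway genes. Each point is a gene, filled where the edgeR adjusted p is under 0.05, and the red line is the median of the list. The inflammatory targets hold 11 filled points and a median of 0.36, the kinases none and a median of 0.08.

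A second split asked how the genes differ with the mesothelial genes, which are known from the lining of the peritoneum and mark many of the collagen-positive cells here. Cells with at least 3 UMIs of the 7-gene list, which were 15.5% to 50.7% of a library, were compared with cells that had none. *Birc3*, *Tnfrsf1a* and *Ltbr* were lower and *Nfkbia* was higher in the former, where 20.6% of all genes were lower and 17.2% higher. Thus 3 of the 10 were lower and 1 was higher, while 5524 of 14604 genes were called in either direction. The median absolute log2 difference was 0.24 for the 10 genes and 0.28 for all genes, and the 10 were not tested as a set. Cells with mesothelial UMIs were deeper, at medians of 8414 to 11511 UMIs against 4366 to 8673. The fibroblast list summed to 12086 to 21322 CPM in them and to 28868 to 35015 CPM in the cells without, and the 6 cell cycle genes to 625 to 816 CPM and 390 to 510 CPM. *Xist* was lower in them in 4 of 4 libraries, by log2 ratios of -1.47 to -1.08, and the Y-linked list was higher, at 59.0 to 82.9 CPM against 43.7 to 56.6 CPM.

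*Birc3* stood at 24.0 CPM with and 41.6 CPM without mesothelial UMIs in tdTomato-neg eGFP-neg fibroblasts, at 31.8 and 45.9 CPM in the tdTomato-neg eGFP+ library, at 29.0 and 44.3 CPM in the tdTomato+ eGFP+ library, and at 42.7 and 50.1 CPM in the tdTomato+ eGFP-neg library. It was lower in 4 of 4 libraries, at -0.58 ± 0.10 (SE, n = 4; edgeR adjusted p = 0.00276), and passed in 13 of 13 alternatives. *Nfkbia* stood at 1079 and 838 CPM, 1240 and 1020 CPM, 1192 and 1044 CPM, and 1345 and 1054 CPM in the same order, higher in 4 of 4 libraries by 0.25 ± 0.06 (SE, n = 4; adjusted p = 0.00972). These genes thus moved in opposite directions within the same cells. *Tnfrsf1a* was at -0.27 ± 0.06 (adjusted p = 0.00982) and *Ltbr* at -0.26 ± 0.07 (adjusted p = 0.0278), each lower in 4 of 4 libraries.

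Of the remaining members, *Nfkb2* was at 0.31 (95% interval 0.02 to 0.61, adjusted p = 0.0859) and *Nfkb1* at -0.23 (-0.41 to -0.04, adjusted p = 0.0557) by the edgeR test, and *Traf3*, *Relb*, *Map3k14* and *Rela* lay between -0.17 and 0.13. With the 2 classes matched on UMIs, *Tnfrsf1a* (-0.15, adjusted p = 0.0928) and *Ltbr* (-0.16, adjusted p = 0.207) no longer passed, whereas *Birc3* (-0.50), *Nfkbia* (0.29), *Nfkb1* (-0.23, adjusted p = 0.0416) and *Nfkb2* (0.44, adjusted p = 0.0313) did. Without the tdTomato-neg eGFP+ library *Tnfrsf1a* (-0.28, adjusted p = 0.0557) and *Ltbr* (-0.26, adjusted p = 0.12) missed the threshold at nearly the same size. Without the tdTomato+ eGFP-neg library *Nfkbia* (0.24, adjusted p = 0.0544) and *Ltbr* (-0.19, adjusted p = 0.139) missed it while *Nfkb2* passed (0.44, adjusted p = 0.0425), and without the tdTomato+ eGFP+ library *Ltbr* (-0.25, adjusted p = 0.0620) missed it. In thinned cells *Birc3* and *Nfkb1* (-0.60, adjusted p = 0.000115) passed, and *Nfkbia* (0.11, adjusted p = 0.345), *Tnfrsf1a* (-0.20, adjusted p = 0.359) and *Ltbr* (-0.08, adjusted p = 0.780) did not. *Ltbr* passed in 4 of 13 alternatives in all.

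The mesothelial split was repeated within the cells of each sex mark, an alternative chosen after seeing the data. In cells with only *Xist*, from 3 libraries, *Birc3* (-0.76, adjusted p = 0.00486), *Nfkb1* (-0.50, adjusted p = 0.00531) and *Traf3* (-0.37, adjusted p = 0.0310) were lower by the edgeR test, and *Nfkbia* (0.05, adjusted p = 0.705), *Tnfrsf1a* (-0.17, adjusted p = 0.188) and *Ltbr* (-0.19, adjusted p = 0.347) did not pass. In cells with only Y-linked UMIs, from 4 libraries, *Nfkbia* was higher (0.64, adjusted p = 1.61e-05), *Birc3* (-0.56, adjusted p = 0.000874) and *Tnfrsf1a* (-0.28, adjusted p = 0.0130) were lower, and *Ltbr* did not pass (-0.27, adjusted p = 0.0781). The difference between the marks was not tested.

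A further split was made by *Pi16*, a gene known from precursor-like fibroblasts of many tissues, in the 3 libraries with at least 50 cells in each class. Cells with a *Pi16* UMI numbered 2599 among tdTomato-neg eGFP-neg fibroblasts, 174 in the tdTomato-neg eGFP+ library and 313 in the tdTomato+ eGFP-neg library, and the 24 of the tdTomato+ eGFP+ library were not used. *Birc3* and *Tnfrsf1a* were higher and *Nfkbia* and *Nfkb2* were lower in cells with *Pi16*, where 9.66% of all genes were higher and 11.8% lower. In either direction 3384 of 15792 genes were called. The median absolute log2 difference was 0.24 for the 10 genes and 0.25 for all genes. The cells with *Pi16* held medians of 5163 to 8444 UMIs and those without 6006 to 9176. In each of the 3 libraries the mesothelial list was lower in the cells with *Pi16*, at 115 to 628 CPM against 180 to 821 CPM, the fibroblast list was higher, at 25907 to 39350 CPM against 18761 to 30003 CPM, and *Xist* was higher, by log2 ratios of 0.14 to 0.84. The part of these lists in the differences was not tested. Many cells are in more than 1 of the 3 splits, and their values are given side by side without a test across them.

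*Birc3* stood at 43.4 CPM with and 29.1 CPM without *Pi16* UMIs in tdTomato-neg eGFP-neg fibroblasts, at 65.4 and 36.0 CPM in the tdTomato-neg eGFP+ library, and at 66.3 and 46.6 CPM in the tdTomato+ eGFP-neg library. It was higher in 3 of 3 libraries, by 0.55 ± 0.09 (SE, n = 3; edgeR adjusted p = 0.000469). *Tnfrsf1a* was higher by 0.30 ± 0.07 in 3 of 3 libraries (adjusted p = 0.00719). The *Ltbr* estimate of 0.27 ± 0.10, positive in 3 of 3 libraries, did not pass (adjusted p = 0.0591).

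*Nfkbia* stood at 914 and 979 CPM, 891 and 1188 CPM, and 949 and 1152 CPM with and without *Pi16* UMIs in the same order of libraries, lower in 3 of 3 at -0.34 ± 0.07 (SE, n = 3; edgeR adjusted p = 0.00176). *Nfkb2* stood at 18.4 and 25.2 CPM, 23.7 and 35.5 CPM, and 30.8 and 33.5 CPM, lower in 3 of 3 at -0.45 ± 0.11 (SE, n = 3; adjusted p = 0.00923). *Nfkbia* and the receptor gene *Tnfrsf1a* therefore had opposite signs in the *Pi16* split, as they had in the mesothelial split. The known target genes did not go together. *Birc3* had the sign of *Tnfrsf1a* in both splits, and *Nfkb2* that of *Nfkbia*. The call of *Nfkb2* was lost without the tdTomato-neg eGFP-neg library (-0.38, adjusted p = 0.138) or the tdTomato-neg eGFP+ library (-0.39, adjusted p = 0.0509), and in thinned cells those of *Birc3* (0.12, adjusted p = 0.835) and *Tnfrsf1a* (0.32, adjusted p = 0.170) were lost, with *Nfkb2* at -1.15. *Traf3*, *Map3k14*, *Rela*, *Nfkb1* and *Relb* were between -0.21 and -0.03 and did not pass. Without the tdTomato+ eGFP-neg library *Nfkb1* passed (-0.21, adjusted p = 0.0353).

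Within the sex marks, again chosen after seeing the data, the *Pi16* calls were not the same. In cells with only *Xist*, from 3 libraries, *Birc3* (0.92, adjusted p = 0.00249) and *Tnfrsf1a* (0.29, adjusted p = 0.0420) were higher by the edgeR test, and *Nfkbia* (-0.10, adjusted p = 0.335) and *Nfkb2* (-0.32, adjusted p = 0.172) did not pass. In cells with only Y-linked UMIs, from 2 libraries, *Nfkbia* (-0.49, adjusted p = 0.0256) and *Nfkb1* (-0.49, adjusted p = 0.0234) were lower, and *Birc3* (0.04, adjusted p = 0.957), *Tnfrsf1a* (0.20, adjusted p = 0.477) and *Nfkb2* (-0.55, adjusted p = 0.109) did not pass. The difference between the marks was not tested here either.

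**Figure D5:**
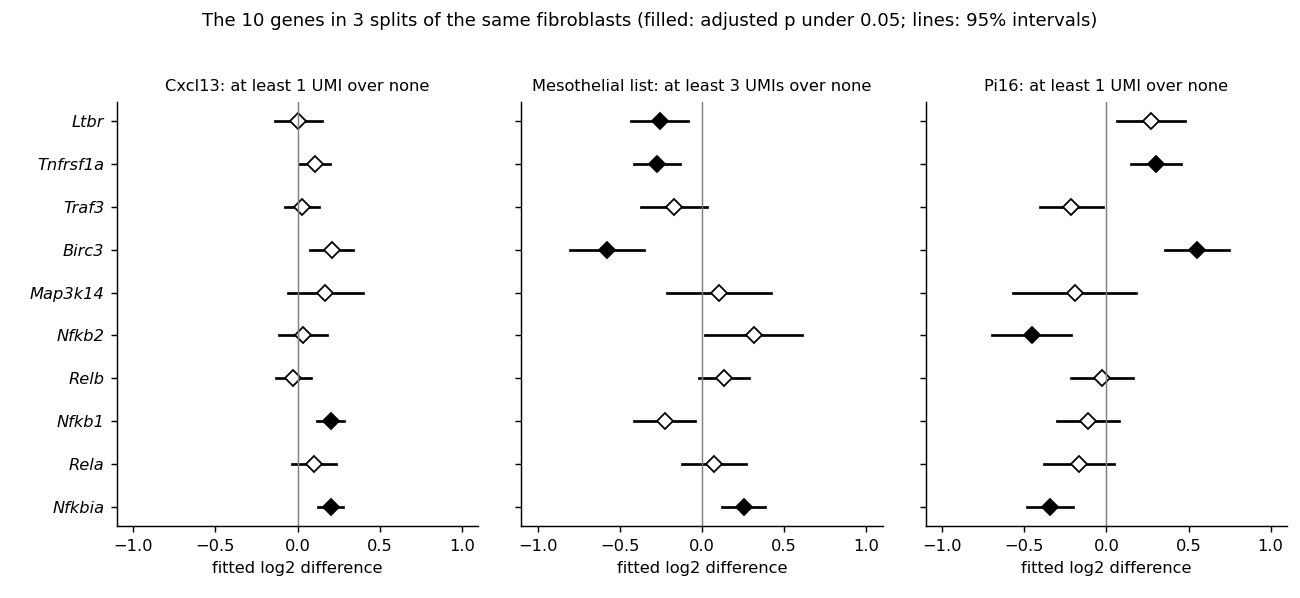
Fitted log2 difference (horizontal axis) of each gene in 3 splits of the fibroblasts, by *Cxcl13*, by mesothelial genes and by *Pi16*. Diamonds are edgeR estimates over 4, 4 and 3 libraries, filled where the adjusted p is under 0.05, and lines are 95% intervals. *Birc3* lies at 0.21, -0.58 and 0.55 and *Nfkbia* at 0.20, 0.25 and -0.34.

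The further pathway genes were called in both directions by these splits. Of 74 tested, 12 were higher and 22 lower in cells with mesothelial UMIs, where 17.2% and 20.6% of all genes were, and 13 of the lower ones were inflammatory targets. Of 75 tested, 8 were higher and 18 lower in cells with *Pi16* UMIs, where 9.66% and 11.8% of all genes were, with 8 of the lower ones inflammatory targets. The median over these genes was -0.05 in the mesothelial split and -0.13 in the *Pi16* split, where that of all genes was -0.03 in both.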

How the data were processed

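Each of the 4 sorted populations gave 1 library. Deposited by the authors were raw UMI counts per gene and barcode. Their processing notes name Cell Ranger 10.0.0, STAR, Seurat 5.0 and the build GRCm39, and the matrix headers name Cell Ranger 8.0.0. The 10 genes and all lists were chosen with earlier results of these data known.

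Counts were summed over kept cells per library and class with Python 3.11.15, numpy 2.4.6, scipy 1.17.1 and pandas 2.3.3. Levels are CPM with exact 95% Poisson intervals, shares have exact Clopper-Pearson intervals, and ratios have exact conditional intervals. Where a share is 0, 3 counts were taken as the limit. Splits were fitted with R 4.3.3 and edgeR 4.0.16 (TMM, filterByExpr, robust quasi-likelihood test, library as block, two-sided), without the genes that made the split, and p-values were adjusted by Benjamini-Hochberg over all genes tested, at a threshold of 0.05. DESeq2 1.42.0 was an alternative. Cells were thinned to 2000 UMIs with seed 1. Doublets were not called here; cells of over 6000 genes or with *Ptprc* or *Pax3* were left out. Genes outside the 10 were named by a rule: *Lta*, *Ltb*, *Tnf* and *Tnfsf14* always, and per list at most 4 called genes with the largest positive and 4 with the largest negative difference by *Cxcl13*. The edgeR step was tested on simulated data. The authors' tests across cells were not repeated.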

Additional observations from a re-analysis of the deposited data

Results flagged for a closer look

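The *Cxcl13* difference of *Nfkb2* had 1 sign in both tdTomato+ libraries and the other in both tdTomato-neg libraries, which set it apart from the other 9 genes. The difference between the library pairs was 0.29 (edgeR interaction term, unadjusted p = 0.0270, adjusted p = 0.616), so it did not pass.

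The tdTomato contrast had opposite signs with and without eGFP for 8 of the 10 genes, as it had for 48.4% of the 9797 genes compared. The log2 ratio without eGFP exceeded that with eGFP by 0.35 for *Ltbr*, 0.27 for *Tnfrsf1a*, 0.52 for *Map3k14*, 0.92 for *Nfkb1*, 0.82 for *Nfkb2*, 0.70 for *Rela*, 0.57 for *Traf3* and 0.33 for *Nfkbia*. With 1 library on each side the difference was not tested. Of 20 sets of 4 per-library differences, by *Cxcl13* and by mesothelial genes, 0 held a value far from the other 3 by Dixon's criterion, which chance alone would flag in about 1 of 20 sets.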

How the results depend on the processing

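Without the library block, 0 of the 10 genes and 1 of 13625 genes were called by *Cxcl13*. By mesothelial genes these were 2 of the 10 and 3596 of 14604, and by *Pi16* 0 of the 10 and 299 of 15792. By *Cxcl13*, 4 of the 10 and 1192 of 12495 genes were called in cells with no mesothelial UMI. In cells with no cell cycle UMI these were 1 of the 10 and 485 of 10941 genes. In cells with only *Xist* they were 0 of the 10 and 435 of 11830 genes, and in thinned cells 2 of the 10 and 500 of 10677 genes. Cells with only *Xist* gave 2741 of 12451 genes by mesothelial genes and 2152 of 13650 by *Pi16*, and cells with only Y-linked UMIs 1011 of 12727 by *Pi16*. Thinning left 2 of the 10 and 2612 of 10596 genes called by mesothelial genes, and 2 of the 10 and 2106 of 12076 genes by *Pi16*. Leaving out 1 library gave 2 to 4 of the 10 and 3390 to 4754 genes by mesothelial genes, with 13281 to 15608 tested. By *Pi16* it gave 1855 to 3312 genes, with 15158 to 16199 tested.

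Between libraries, a log2 threshold of 0.5 left 4 of the 10 higher with tdTomato among eGFP-neg (12.1% of all genes) and 0 lower among eGFP+ libraries (7.13%), 2 higher with eGFP among tdTomato-neg (7.60%) and 0 lower among tdTomato+ libraries (4.52%). With tdTomato among eGFP+ libraries, 1 was higher in *Xist* cells (11.3%) and 1 in thinned cells (17.8%), and 5 were lower in cells with only Y-linked UMIs (33.0%). With eGFP, 3 were higher in *Xist* cells of tdTomato-neg libraries (21.5%), and 1 was higher in thinned cells (13.0%) and 3 lower by the mean over cells (25.2%) of tdTomato+ libraries. With at least 3 mesothelial UMIs, chosen after seeing the data, the tdTomato ratio of *Nfkb2* among eGFP+ libraries turned to 0.0788 and the eGFP ratio of *Map3k14* among tdTomato+ libraries to 0.10, and thinning turned the latter to 0.24. The causes were not tested. Of 180 values of single genes under alternatives by *Cxcl13*, 147 kept direction and call, as did 103 of 130 by mesothelial genes and 97 of 120 by *Pi16*. Of 280 ratios between libraries, 174 stayed within their counting interval, 103 moved beyond it and 3 reversed. The classes of a split are paired within a library by the library block, but between populations no paired analysis was possible because each has 1 library. Low counts limit *Map3k14* most.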

Other observations

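Cells with *Xist* and no Y-linked UMI were compared with cells that had Y-linked and no *Xist* UMIs, within each library and as values only, since nothing ties cells to animals. *Nfkb1* was lower in the *Xist* cells in 4 of 4 libraries, by a log2 ratio of -0.67 to -0.20, and *Relb* in 4 of 4, by -0.36 to -0.03. The receptors stood the other way, with *Tnfrsf1a* at 0.22 to 0.45 and *Ltbr* at 0.09 to 0.30 in 4 of 4 libraries. *Birc3* was at 0.42 in the tdTomato-neg eGFP-neg library and between -0.26 and -0.18 in the other 3. *Xist* cells were 43.7% to 66.0% of the cells with 1 of the 2 marks. The marks also differed in cell classes. *Xist* was lower in cells with mesothelial UMIs in 4 of 4 libraries and higher in cells with *Pi16* UMIs in 3 of 3. In the tdTomato-neg eGFP+ library, 454 *Xist* cells had at least 3 mesothelial UMIs and 595 had none. Among its cells with only Y-linked UMIs these were 1097 and 367. The part of the cell classes in these values was not tested.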
